A study of Rattus norvegicus with 6 samples.

Results

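The cardiac transcription factors Gata4, Gata6, Nkx2-5, Tbx5, Tbx20, Mef2a, Mef2c, Mef2d and Hand2, together with Meis1, were examined in the RNA-seq data of rat neonatal cardiomyocytes. These 10 genes were taken by name from the gene count table, and every row of an unannotated transcript lying over one of them on the same strand was added. This gave 19 rows, 10 annotated and 9 unannotated, of the 43035 rows of the table, which held 32883 annotated genes and 10152 unannotated rows. The cells were primary cultures from the hearts of Sprague-Dawley rats at postnatal day 1. In the control group (si-NC) 3 libraries came from cells given a scramble siRNA, and in the other group (si-DYRK1A) 3 libraries came from cells given an siRNA against the kinase DYRK1A. All 6 libraries were made 48 h after transfection, and the labels describe the 3 libraries of a group as biological replicates. The comparison asked whether these factors differed in mRNA level between the groups.

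The GATA, NK2, T-box, MEF2 and HAND proteins are DNA-binding factors that act together on the genes of heart muscle, from contractile proteins to ion channels and natriuretic peptides. GATA factors bind DNA through zinc fingers, NKX2-5 through a homeodomain, TBX5 and TBX20 through a T-box, HAND2 through a basic helix-loop-helix domain, and the MEF2 proteins through a MADS-box shared with the serum response factor. MEIS1 is a homeodomain protein of the TALE class, which binds DNA with PBX and HOX partners. In the mouse heart it is known for restraining cardiomyocyte division after birth and for activating inhibitors of cyclin-dependent kinases (CDK).

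The promoters of 3 members are shown because Tbx20 carried the difference that was called most firmly, Nkx2-5 had the highest level per length, and Mef2a held matches to the DNA motifs of its own family and of the T-box family. Each sequence runs from 250 bases before the RefSeq start site to 50 bases from it on, in the GRCr8 build, which is not the build of the count table. Capitals mark matches, on either strand, to the MEF2 motif CTANNNNTAG, the GATA motif AGATAA, the T-box motif GGTGTG or the MEIS motif TGACAG.
Tbx20, chr8:31533960-31534259, minus strand: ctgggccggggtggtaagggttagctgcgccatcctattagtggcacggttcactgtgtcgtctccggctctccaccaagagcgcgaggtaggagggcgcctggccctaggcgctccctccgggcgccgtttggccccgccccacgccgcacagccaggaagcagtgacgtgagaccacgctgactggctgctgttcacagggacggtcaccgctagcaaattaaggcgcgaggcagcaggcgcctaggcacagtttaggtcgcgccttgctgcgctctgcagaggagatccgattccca
Nkx2-5, chr10:16848350-16848649, plus strand: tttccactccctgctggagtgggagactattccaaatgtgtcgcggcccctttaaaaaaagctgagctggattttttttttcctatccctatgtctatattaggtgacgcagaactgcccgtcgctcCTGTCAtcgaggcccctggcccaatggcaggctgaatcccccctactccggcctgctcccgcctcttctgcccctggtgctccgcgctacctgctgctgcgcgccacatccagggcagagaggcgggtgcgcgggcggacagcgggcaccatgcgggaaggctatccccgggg
Mef2a, chr1:130392113-130392412, minus strand: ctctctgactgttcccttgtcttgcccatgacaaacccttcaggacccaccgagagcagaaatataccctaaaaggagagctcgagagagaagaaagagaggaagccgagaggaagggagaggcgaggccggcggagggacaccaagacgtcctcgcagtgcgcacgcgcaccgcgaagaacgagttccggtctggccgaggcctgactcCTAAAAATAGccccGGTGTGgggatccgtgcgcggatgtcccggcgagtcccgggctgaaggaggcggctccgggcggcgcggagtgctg

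The Mef2a window held CTAAAAATAG, a MEF2 match, 40 bases before the start, and GGTGTG, a T-box match, 26 bases before it. The Nkx2-5 window held CTGTCA, a MEIS match on the minus strand, 123 bases before the start, and the Tbx20 window held none of these motifs. Among the 8 members with a promoter in the RefSeq table, 1 held the MEF2 motif (3.84% of all 33469 promoters), 1 the GATA motif (11.6%, Hand2), 1 the T-box motif (17.9%) and 3 the MEIS motif (19.0%, Gata6, Nkx2-5 and Tbx5). Also searched, and not marked above, were the NKX2-5 motif AAGTG, held by 1 (46.2%, Hand2), and the E-box CANNTG, held by 3 (72.1%, Nkx2-5, Tbx5 and Hand2). A match is a run of letters and not a measured binding site. Gata4 and Mef2c were not among the matched promoters.

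The libraries held 10325074 to 11921772 counts, and unannotated rows took 17.2% to 17.5% of them. The correlation of log2 CPM, counts scaled to a common library size, was 0.984 to 0.988 within a group and 0.979 to 0.983 between groups. The targeted gene, Dyrk1a, had 3, 0 and 1 counts in si-NC replicates 1 to 3 and 2, 1 and 0 counts in si-DYRK1A replicates 1 to 3. An unannotated row on its strand had 777, 919 and 968 counts in si-NC and 971, 851 and 944 counts in si-DYRK1A, so these counts do not check the labels, and every direction below rests on them.

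For most of the members the annotated row did not hold the counts of the gene. An unannotated row on the same strand lay over 9 of the 10 genes, all but Nkx2-5, and is called the covering row here. In the protein domain names that the table gives, the covering rows of Gata4 and Gata6 had a GATA zinc finger, those of Tbx5 and Tbx20 a T-box, those of Mef2a, Mef2c and Mef2d an SRF-type DNA-binding domain, that of Hand2 a helix-loop-helix domain, and that of Meis1 a Meis homeobox region. In 7 members over 90% of the counts of the 6 libraries lay in the covering row. Tbx20 had 45 counts in its annotated row and 36889 in the covering row. Mef2a had 57 and 12977, Gata6 had 118 and 3223, and Mef2c had 3 and 437. The annotated rows of Mef2d, Hand2 and Meis1 were at 0 in all 6 libraries, while their covering rows held 6815, 151 and 610 counts. Gata4 was the exception, with 677 counts in the annotated row and 73 in the covering row. Tbx5 had 28 and 45, and Nkx2-5 had 15552 in its only row. Beyond these genes, annotated rows under such a row were often low. Of the 6885 protein-coding genes lying there, 77.2% stayed below 10 counts in each of the 6 libraries, against 45.4% of the 15365 others. The counts of the covering rows do not enter these shares, and a gene without expression would also be low. Srf, Casq2 and Xirp2, listed below, went the other way. Their covering rows were at 0 and their annotated rows held 4226, 68525 and 14895 counts.

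**Figure D1:**
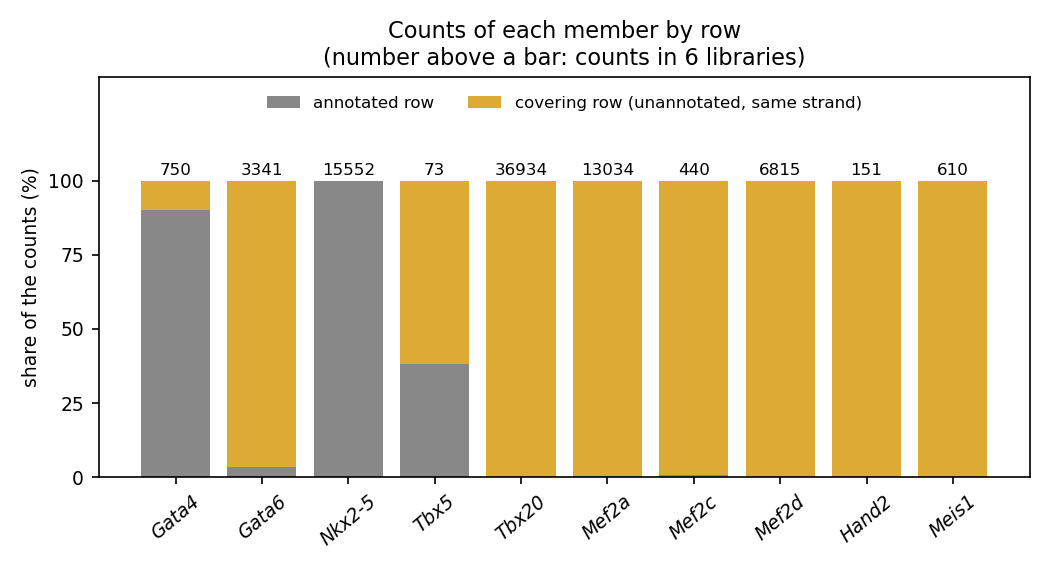
Share of the counts (%, bars stacked to 100) that lay in the annotated row (grey) and in the unannotated row covering it on the same strand (yellow) for each member, with the counts of the 6 libraries above each bar. Nkx2-5 had no covering row, Gata4 had 9.73% of its counts there, and 7 members had over 90%.

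The rows lay, in the Rnor_6.0 build of the table, as follows. Tbx20 (ENSRNOG00000016181) spanned chr8:25850962-25904570 on the minus strand, and its covering row chr8:25805234-25904564. Mef2c (ENSRNOG00000033134) spanned chr2:11658568-11822787 on the plus strand, and its covering row chr2:11678627-11824455. Meis1 (ENSRNOG00000004606) spanned chr14:103181281-103321270 on the minus strand, and its covering row chr14:103181284-103323275. Nkx2-5 (ENSRNOG00000020747) spanned chr10:16635989-16638764 on the plus strand. All 10 genes are listed as protein-coding, and a row counts a whole gene, so that no exon can be told from another. The annotated spans of the others were chr15:46386712-46432965 (Gata4, minus strand), chr18:2416552-2446338 (Gata6, plus), chr12:42097626-42148146 (Tbx5, plus), chr1:128209971-128341263 (Mef2a, minus), chr2:187512164-187538026 (Mef2d, plus) and chr16:36371489-36373546 (Hand2, minus). The covering row had more transcribed length than the annotated row in all 9 cases, by 133 bases for Gata4, 2002 for Meis1, 4016 for Tbx20 and 5887 for Mef2d. Whether its counts came from the bases of the known transcript cannot be read from a count table. The covering row of Tbx20 also ran over 24336 bases of the neighbouring gene Dpy19l2, whose own row held 2 to 10 counts a library. Because annotated rows under a covering row were often low, these counts do not show how much Dpy19l2 added to the covering row.

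Between the groups the members differed little, and Tbx20 and Mef2c were called. Of the 19 rows, 11 had enough counts to be tested and 8 had not. Under edgeR, whose quasi-likelihood p-values were adjusted by Benjamini-Hochberg over the 15513 rows tested (threshold 0.05), 2 of the 11 were called, both higher in si-DYRK1A. That test called 15.2% of all rows, 8.03% higher and 7.19% lower, so the share of member rows called was near that of all rows. The groups did not overlap in 3 of the 11 member rows and in 31.5% of all rows tested. The median log2 fold change was 0.11 over the 11 member rows, which ranged from -0.59 to 0.77, and 0.002 over all rows. With the annotated and covering rows of a gene added up, all 10 members could be tested, 7 had a positive difference, the median was 0.14, and 1, Tbx20, was called, where 15.2% of all rows were. Tbx20 entered that count with its covering row alone because of the overlap with Dpy19l2.

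**Figure D2:**
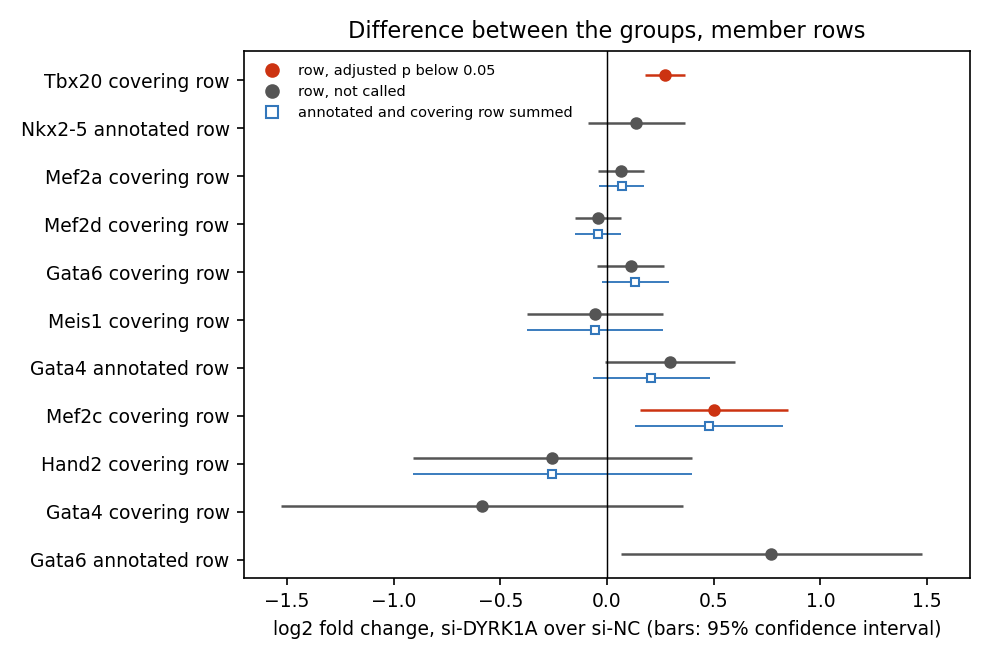
Log2 fold change of si-DYRK1A over si-NC (x axis) with its 95% confidence interval for each tested member row, red where the adjusted p was below 0.05 and grey elsewhere, and for the summed annotated and covering rows (blue squares). The interval lay above 0 for the covering rows of Tbx20 (0.18 to 0.37) and Mef2c (0.15 to 0.85) and for the annotated row of Gata6 (0.07 to 1.48), whose adjusted p was 0.141.

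Tbx20, a T-box factor that adult and developing cardiomyocytes both need, rose in si-DYRK1A. Its covering row had 479, 518 and 482 CPM in si-NC replicates 1 to 3 and 626, 569 and 591 CPM in si-DYRK1A replicates 1 to 3, after scaling the libraries by the trimmed mean of M values (TMM). All 3 si-DYRK1A libraries lay above all 3 si-NC libraries. The means were 493 ± 21.3 and 596 ± 28.8 CPM (SD, n = 3 each), a log2 fold change of 0.27 (SE 0.0458), or 20.8% more with a 95% interval of 13.1% to 29.0% (edgeR adjusted p = 0.000239). An exact permutation test (two-sided) had p = 0.1, the smallest that 3 against 3 allow. The difference stayed called with any 1 library left out, at a log2 fold change of 0.24 to 0.31. Tbx5, the T-box factor linked to Holt-Oram syndrome, was barely detected. Its annotated and covering rows together had 10, 5 and 17 counts in si-NC and 11, 16 and 14 counts in si-DYRK1A, with overlapping groups. The log2 fold change was 0.39 (SE 0.442, edgeR adjusted p = 0.629), and its wide 95% interval of -0.53 to 1.30 leaves room for a difference in either direction.

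Among the MEF2 members, Mef2c was higher in si-DYRK1A at a low level. Mef2a and Mef2d, which held nearly all of the summed signal of the MEF2 members, were not called. MEF2C is needed for the embryonic heart tube to loop and form its chambers. Its covering row had 56, 62 and 65 counts in si-NC and 84, 82 and 88 counts in si-DYRK1A, which is 5.37, 5.24 and 5.44 CPM against 7.39, 7.72 and 7.62 CPM. The libraries of each group lay close together, and the groups did not overlap. The log2 fold change was 0.50 (SE 0.167, edgeR adjusted p = 0.0462), or 41.5% more with a 95% interval of 11.2% to 80.1%. This call stood at the threshold: leaving out any 1 of the 6 libraries ended it (adjusted p of 0.0843 to 0.127), DESeq2 gave an adjusted p of 0.169, and adding the 3 counts of the annotated row gave 0.0581. Its direction was the same in every one of these settings.

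Mef2a, the most abundant MEF2 gene here, had 179, 197 and 185 CPM in si-NC and 208, 187 and 192 CPM in si-DYRK1A in its covering row. Its groups overlapped, with a log2 fold change of 0.06 (SE 0.0514, edgeR adjusted p = 0.454) and a 95% interval of -2.86% to 12.6%. Mef2d, whose splice forms are known to change as muscle matures, had 103, 104 and 99.4 CPM in si-NC and 98.7, 95.1 and 103 CPM in si-DYRK1A in its covering row. Its log2 fold change was -0.04 (SE 0.0523, edgeR adjusted p = 0.654), with a 95% interval of -9.97% to 4.65%. The data leave room for changes of Mef2a or Mef2d within these bounds. In FPKM, a measure that divides the counts by depth and by transcript length, shares were taken of the sum of Mef2a, Mef2c and Mef2d. Mef2a made up 70.2% ± 0.964 of this sum in si-NC and 71.4% ± 1.30 in si-DYRK1A (SD, n = 3 each). Mef2d made up 28.3% ± 0.877 and 26.6% ± 1.22. Mef2c made up 1.50% ± 0.109 and 2.01% ± 0.132, the one share whose groups did not overlap (exact permutation test, two-sided, p = 0.1, the smallest possible). Mef2b, a MEF2 gene that is not a member, was left out of this sum. Its annotated row had 5, 16 and 13 counts in si-NC and 10, 9 and 27 counts in si-DYRK1A. That row had a length of 1316 bases, against 8115 for the covering row of Mef2c.

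The GATA factors were both slightly higher in mean and neither was called. Gata4, a regulator of cardiac growth genes such as the natriuretic peptides, had 7.67, 10.4 and 8.78 CPM in si-NC and 10.2, 11.7 and 11.2 CPM in si-DYRK1A in its annotated row. One control library lay within the range of the si-DYRK1A libraries. The log2 fold change was 0.30 (SE 0.147, edgeR adjusted p = 0.200), and with its covering row added it was 0.21 (SE 0.132, adjusted p = 0.333). The covering row of Gata4 alone, with 5 to 21 counts a library, had a log2 fold change of -0.59 (SE 0.452, adjusted p = 0.441). Gata6, which overlaps with Gata4 in function, had 49.5, 44.7 and 43.4 CPM in si-NC and 52.3, 50.2 and 46.0 CPM in si-DYRK1A in its covering row. These groups overlapped, at a log2 fold change of 0.11 (SE 0.0758, edgeR adjusted p = 0.375). In the annotated row of Gata6, with 17, 10 and 17 counts against 20, 27 and 27, the groups did not overlap, and the log2 fold change of 0.77 (SE 0.339) was not called (adjusted p = 0.141). The sum of both rows had a log2 fold change of 0.13 (SE 0.0747, adjusted p = 0.263).

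Nkx2-5, the homeodomain factor that marks the cardiac lineage, had 229, 219 and 208 CPM in si-NC and 206, 251 and 265 CPM in si-DYRK1A. Replicate 1 of si-DYRK1A was the lowest of all 6 libraries, and the other two of its group were the highest. The means were 219 ± 10.6 and 241 ± 30.9 CPM (SD, n = 3 each), with a log2 fold change of 0.14 (SE 0.0951, edgeR adjusted p = 0.421). Without si-DYRK1A replicate 1 it was 0.24 and was called (adjusted p = 0.00675). Hand2, which is needed for the right ventricle in the embryo, was scarce. Its covering row had 2.21, 2.54 and 2.51 CPM in si-NC and 3.08, 1.60 and 1.39 CPM in si-DYRK1A. The si-DYRK1A libraries lay on both sides of the si-NC libraries, with a log2 fold change of -0.26 (SE 0.315, edgeR adjusted p = 0.656).

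Meis1 did not differ beyond the spread of the libraries. Its covering row had 101, 96 and 117 counts in si-NC and 92, 106 and 98 counts in si-DYRK1A, or 9.68, 8.12 and 9.78 CPM against 8.09, 9.98 and 8.48 CPM. Each group held both low and high libraries. The means were 9.20 ± 0.934 and 8.85 ± 0.998 CPM (SD, n = 3 each), with a log2 fold change of -0.06 (SE 0.153, edgeR adjusted p = 0.865; exact two-sided permutation p = 0.9). The 95% interval ran from -22.8% to 20.0%, so the data leave room for a change of Meis1 mRNA in either direction within these bounds. Without si-DYRK1A replicate 1 the log2 fold change was 0.01.

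**Figure D3:**
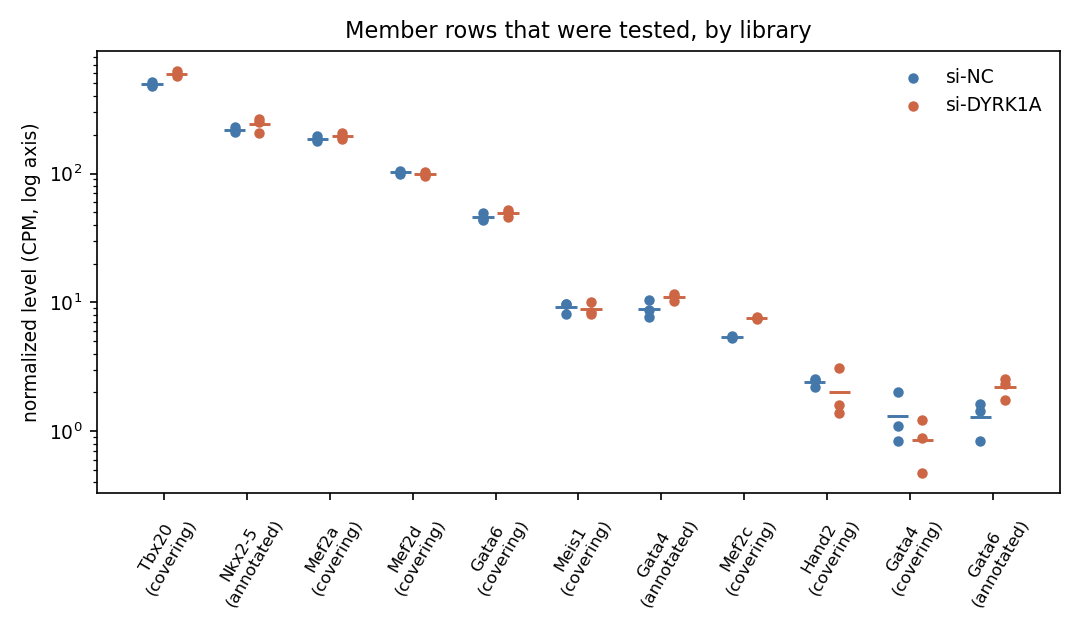
Normalized level (CPM, log axis) of each tested member row in each library, blue for si-NC and orange for si-DYRK1A, with a horizontal line at the mean of the 3 libraries. The groups stand apart in the covering rows of Tbx20 (479 to 518 against 569 to 626) and Mef2c (5.24 to 5.44 against 7.39 to 7.72) and in the annotated row of Gata6 (0.846 to 1.63 against 1.76 to 2.54).

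The relatives and partners of Meis1 were listed as well: 12 TALE and HOX genes, of which 4 annotated and 3 covering rows could be tested. None of the 7 was called by edgeR or by DESeq2, and 0 had an unadjusted edgeR p under 0.05. Over all rows tested, edgeR called 15.2%. Meis2, the closest relative of Meis1, had 11.1 ± 1.39 and 11.5 ± 1.86 CPM in its covering row (log2 fold change 0.05, adjusted p = 0.864). Hoxa9 and Hoxb13 had no counts. Of the 3 CDK inhibitors that MEIS1 is known to activate, 1 was called, beside the same 15.2% of all rows. Cdkn1a, which encodes p21, rose from 6.18 ± 0.980 to 10.2 ± 1.65 CPM in a covering row that also lay over a second annotated gene (log2 fold change 0.72, SE 0.173, edgeR adjusted p = 0.00565). Cdkn2a had 3.30 ± 1.13 CPM in si-NC and 5.03 ± 1.63 in si-DYRK1A (log2 fold change 0.61, adjusted p = 0.190, and 0.0477 without si-DYRK1A replicate 1), and the covering row of Cdkn2b, which also lay over Cdkn2a, had 17.6 ± 1.56 and 16.6 ± 1.59 CPM (log2 fold change -0.09, adjusted p = 0.663).

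The levels of the members per length were set side by side with the FPKM values, using for each gene the row with more counts. In si-NC the order was Nkx2-5 (162 ± 7.56 FPKM), Tbx20 (78.6 ± 3.63), Mef2a (31.2 ± 1.65), Mef2d (12.6 ± 0.309) and Gata6 (7.18 ± 0.482), followed by Gata4 (2.65 ± 0.415), Meis1 (1.66 ± 0.164), Hand2 (0.806 ± 0.0636), Mef2c (0.655 ± 0.0108) and Tbx5 (0.143 ± 0.0750; SD, n = 3 each). No member's range over the 3 libraries overlapped that of the next in this order. In si-DYRK1A the order of Hand2 and Mef2c changed, with 0.672 ± 0.306 FPKM for Hand2 and 0.925 ± 0.0213 for Mef2c, and the ranges of Hand2 (0.460 to 1.02) and Mef2c (0.902 to 0.944) overlapped. These levels depend on the length assigned to each covering row.

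Because the RNA came from whole cultures, fewer cells of a type and less RNA per cell cannot be told apart. Of the 9 cardiomyocyte markers found, 5 annotated rows were tested and 3 were higher (Actc1, Actn2 and Pln). Myl3 (log2 fold change -0.11, edgeR adjusted p = 0.0878) and Tnnt2 (-0.14, adjusted p = 0.595) were lower in mean and not called. None of the 4 tested covering rows was called by edgeR or DESeq2 (0 with an unadjusted edgeR p under 0.05). Summed over the annotated rows, the markers had 13921 to 14310 CPM in si-NC and 15013 to 15440 CPM in si-DYRK1A, a log2 difference of 0.11 with no overlap. Most of this sum came from Actc1, with a mean of 9976 CPM in si-NC and 10880 CPM in si-DYRK1A. The annotated rows of Mybpc3, Myh6 and Tnni3 were at 0 in all libraries, while each had counts in its covering row, which for Myh6 and Tnni3 also lay over other genes. Of the 3 markers called, 1, Actn2, stayed called without si-NC replicate 1 and without si-DYRK1A replicate 2 or 3. Taken as a log2 ratio to this sum, Tbx20 was 0.17 higher in si-DYRK1A and Mef2c 0.37 higher, each with no overlap. Mef2d was 0.15 lower with no overlap (exact two-sided permutation p = 0.1 for each of these ratios, the smallest possible with n = 3 each). In CPM, before this division, the groups of Mef2d overlapped (log2 fold change -0.04). Of all rows tested, 31.5% had groups that did not overlap in CPM. The like share for ratios to the marker sum, which itself differed between the groups, was not computed. The ratios of the other 7 members overlapped between the groups, with differences from -0.45 for Hand2 to 0.43 for Tbx5, and -0.16 for Meis1.

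Markers of other cells were present and some moved with the groups, where 15.2% of all rows tested were called. For fibroblasts 2 of 7 tested annotated rows and 1 of 4 covering rows, Dcn, were higher (Dcn in 2 of the 6 fits without 1 library), and the summed level was 21592 to 26305 CPM in si-NC and 20431 to 21170 CPM in si-DYRK1A, most of it from Col1a1 and Col3a1, which were not called. For endothelial cells 3 of 7 annotated rows were lower (2 without si-NC replicate 1 or without si-DYRK1A replicate 1 or 3). Tek, the most abundant of the list, was among them (log2 fold change -0.75, edgeR adjusted p = 3.5e-07). Kdr, the next most abundant, was not called (log2 fold change -0.01, edgeR adjusted p = 0.954). The summed level of the endothelial list was 183 to 200.3 CPM against 148 to 152 CPM. For the epicardium 4 of 5 were lower (2 without si-NC replicate 1 or without si-DYRK1A replicate 1), at 165 to 171 CPM against 146 to 153 CPM, with Upk1b at 0. For smooth muscle and pericytes none of 3 annotated rows was called by edgeR or DESeq2 (1, Tagln, with an unadjusted edgeR p under 0.05) and 1 of 3 covering rows (Rgs5) was higher, at 759 to 792 CPM against 800.4 to 823 CPM, with Acta2 at 0. For macrophages 1 of 7 was higher, Lyz2, at 277 to 293 CPM against 276 to 318 CPM, with Cd68 at 0. For Schwann cells 1 of 4 was lower, S100b, at 21.4 to 22.7 CPM against 15.1 to 19.3 CPM. The part of these cells in the differences of Tbx20 and Mef2c was not tested.

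Other cardiac transcription factors and coactivators were counted from a list of 30. Of the 16 annotated rows tested, 6 were higher, none was lower and 10 were not called, with a median log2 fold change of 0.14 against 0.002 over all rows. Over all rows tested, 8.03% were called higher and 7.19% lower. Of the 11 covering rows tested, 1 was higher. Srf, the serum response factor, rose from 54.3 ± 0.516 to 70.7 ± 8.63 CPM (log2 fold change 0.38, SE 0.0768, edgeR adjusted p = 0.00161). Its coactivator Myocd rose from 75.5 ± 6.87 to 92.3 ± 2.31 CPM (0.29, SE 0.0632, adjusted p = 0.00273). Irx4, a factor of the ventricular chambers, rose from 59.7 ± 3.45 to 72.1 ± 3.01 CPM (0.27, adjusted p = 0.00537). The covering row of Tead1, which binds DNA at the end of the Hippo pathway, rose from 712 ± 33.3 to 816 ± 19.9 CPM (0.20, adjusted p = 0.00289) and also lay over a second gene. These rows were called with any 1 library left out. Ppargc1a, a coactivator of mitochondrial genes (0.45, adjusted p = 0.00432), and Foxc1, a forkhead factor (0.36, adjusted p = 0.00424), were not called without si-DYRK1A replicate 3 (adjusted p of 0.0507 and 0.0528). Without si-DYRK1A replicate 3 the count of the list fell from 6 to 3.

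Of 16 cofactors and regulators of these factors, 7 annotated and 7 covering rows were tested. Mapk14, the p38α kinase that phosphorylates MEF2 proteins, fell from 236 ± 0.904 to 202 ± 3.86 CPM (log2 fold change -0.22, SE 0.0434, edgeR adjusted p = 0.00112). Hopx, a homeodomain protein that does not bind DNA and that restrains SRF, had a covering row that rose from 4.91 ± 0.626 to 7.80 ± 1.35 CPM (0.67, adjusted p = 0.0163), and this call was lost without si-NC replicate 2 (0.0639) or si-DYRK1A replicate 3 (0.115). The other 12 rows were not called. Over all rows tested 15.2% were called, so the share of cofactor rows called was near that of all rows.

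Among 26 cardiac genes that these factors are known to activate, 15 annotated rows were tested, of which 7 were higher, 1 was lower and 7 were not called, with a median log2 fold change of 0.10. The shares over all rows were 8.03% higher and 7.19% lower, with a median of 0.002. None of the 9 covering rows tested was called by edgeR or DESeq2 (0 with an unadjusted edgeR p under 0.05), and 7 of the 26 genes are also among the cardiomyocyte markers. Gja1, the gap junction protein connexin 43, rose from 337 ± 2.54 to 480.1 ± 19.3 CPM (log2 fold change 0.51, SE 0.0430, edgeR adjusted p = 3.32e-08). Gja5, the connexin 40 of atrial and conduction cells, rose from 84.3 ± 0.584 to 120 ± 2.57 CPM (0.50, SE 0.0501, adjusted p = 3.73e-07). Nppa, atrial natriuretic peptide, rose from 7557 ± 371 to 9782 ± 475 CPM (0.37, SE 0.0433, adjusted p = 3.71e-06), and Atp2a2, the calcium pump of the sarcoplasmic reticulum, from 3222 ± 89.2 to 3850 ± 93.5 CPM (0.26, SE 0.0385, adjusted p = 6.64e-05). These 4 were called with any 1 library left out.

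The smaller differences of that list depended on single libraries. Actc1, cardiac actin, had a log2 fold change of 0.13 (edgeR adjusted p = 0.0193) and was not called when si-NC replicate 1 or either of replicates 2 and 3 of si-DYRK1A was left out (highest adjusted p = 0.168). Casq2, which binds calcium in the sarcoplasmic reticulum (0.13, adjusted p = 0.0286), and Pln, which inhibits the calcium pump (0.15, adjusted p = 0.0471), were each called in 1 of the 6 such fits. Des, the muscle intermediate filament, was the one that fell (-0.15, adjusted p = 0.0161), and it was not called without si-NC replicate 1 (0.0679) or si-DYRK1A replicate 1 (0.0945). The count of the list was 4 without si-NC replicate 1 and 5 without any 1 of the si-DYRK1A libraries. Myh7, a myosin heavy chain, had no counts in its annotated row, and the covering row of Myh6, with 1257 to 1616 counts a library, also lay over it.

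Another list held 13 genes known as MEF2 targets, of which 11 were found, and Xirp1, Hdac9 and Myocd also stand in the lists above. This list gave 8 annotated rows with 1 higher, 3 lower and 4 not called, and a median of -0.22. That median lay between Hdac9 (-0.22, SE 0.401) and Lmod3 (-0.21, SE 0.343), neither of them called. The 4 covering rows tested had a median of 0.23. Beside these stand 8.03% higher and 7.19% lower over all rows, with a median of 0.002. Xirp2, an actin-binding protein of the intercalated disc, fell from 269 ± 19.8 to 170 ± 11.6 CPM (log2 fold change -0.66, SE 0.0584, edgeR adjusted p = 5.17e-07). Klf6 (-0.38, adjusted p = 1.36e-05) and Jun (-0.36, adjusted p = 1.64e-05), which both encode transcription factors induced early after stimulation, fell as well. The one that rose was Myocd, already counted above, and of 4 covering rows Ldb3, a protein of the Z-disc, rose (0.43, adjusted p = 1.43e-05).

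**Figure D4:**
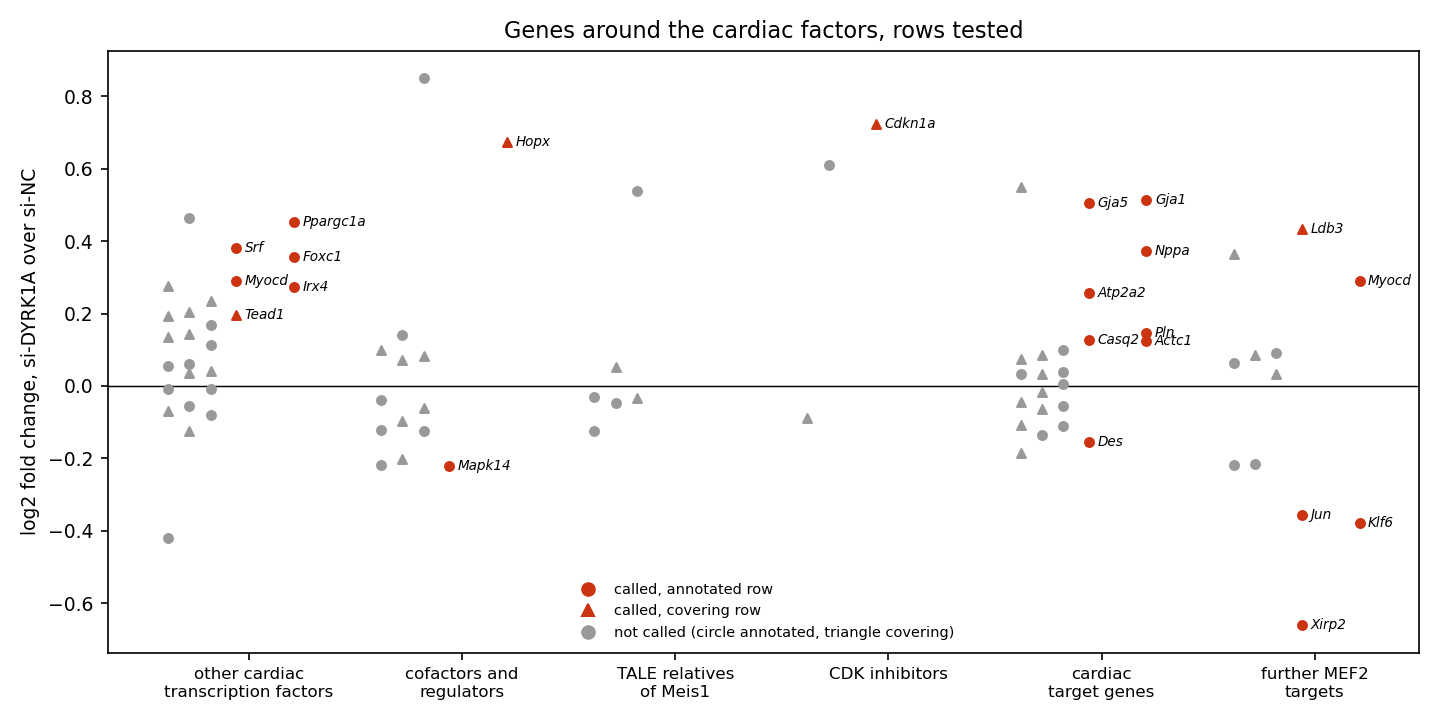
Log2 fold change of si-DYRK1A over si-NC (y axis) for the tested rows of 6 gene lists that are reported here, circles for annotated rows and triangles for covering rows, red and named where the adjusted p was below 0.05 and grey elsewhere. Among the other cardiac factors the 6 called rows shown lie above 0, while in the further MEF2 targets 2 called rows lie above 0 and 3 below it.

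The genes nearest in profile to the members were found by the root mean square of the differences in log2 CPM over the 6 libraries, each gene centred on its own mean, among the 5752 annotated genes that averaged 3 or more in log2 CPM. Nearest to Tbx20 were Car8 (distance 0.0178), Ncaph, Gfm2, Xdh and Efnb2, where the median candidate lay at 0.175. Nearest to Mef2c were Ephx1 (0.0232), Gja5 (0.0272), Sdf2l1, Rasl11b and Csrp2, with a median of 0.261. Each gene named as nearest to Tbx20 or to Mef2c was itself called higher (highest edgeR adjusted p of 0.0178 and 2.11e-05), so nearness there includes the group difference. Nearest to Meis1 were Cyp2t1 (0.0333), Ogfod2 (0.0385), AABR07053741.1, Tom1l1 and Fam65a, with a median of 0.169, and none of these 5 was called.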

How the data were processed

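mRNA of 6 cultures was sequenced, 3 in each of si-NC and si-DYRK1A, and groups and replicate numbers came from the sample labels. The authors deposited raw counts per gene, and FPKM values that equal count over length times 1 constant per library. The paper's methods name HISAT2 and Rnor_6.0, whereas the submitters' processing notes name Bowtie 0.12.2 and the mouse build mm8; the coordinates are those of rat. How the reads were counted (tool, annotation release, strand, reads lying in 2 rows) is not given in the sources used here. Reads could be split between an annotated row and its covering row, so the rows were also summed where the unannotated row covered at least 50% of the gene and no other annotated gene on that strand.

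Counts were tested with edgeR 4.0.16 (TMM, filterByExpr with a minimum count of 10 and a total of 15, robust quasi-likelihood fit, no covariate), and p-values were adjusted over all rows tested. Single values had an exact two-sided permutation test. Alternatives were other scalings and filters, DESeq2 1.42.0, limma 3.58.1 (voom, and log2 of FPKM plus 1 or 0.1), a replicate block, and each library left out. The edgeR script was tested on simulated counts. Total counts per library were 10325074 to 11921772, and p-values measure the spread between these libraries only.

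The members and gene lists were chosen with earlier results of these data known. The genes named are the members, up to 8 called genes of each list (lists of up to 3 genes whole), among the 2 most abundant genes of each marker list those a result turns on, and the 5 nearest profiles. Other marker genes (Actn2, Pln, Tnnt2, Rgs5, Dcn, Tagln and those at 0) and Myh7, Mef2b, Xirp1, Hdac9 and Lmod3 were named after their values were seen. Matching found 150 of the 157 listed symbols directly and 1 through an earlier name, and 6 were not found. Some single genes of the lists are counted but not reported by name. Promoters were RefSeq's of GRCr8.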

Additional observations from a re-analysis of the deposited data

How the results depend on the processing

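The number of member rows called (2) was 1 with library size only, DESeq2, no filter on low counts, limma on log2(FPKM + 1) or log2(FPKM + 0.1), or summed loci, 0 with limma on log2(FPKM + 1) without a filter, and 1 to 2 with each library left out. The number with summed loci (1) was 0 under that last FPKM setting and 1 to 2 with each library left out. Tbx20 lost its call only with log2(FPKM + 1) and no filter (log2 fold change 0.26, adjusted p = 0.0685). For Mef2c the log2 fold change was 0.48 with library size only (adjusted p = 0.0592), 0.50 with DESeq2 (0.169), 0.49 without a filter (0.0922), 0.22 and 0.44 with log2(FPKM + 1) and log2(FPKM + 0.1) (0.223 and 0.228), 0.22 without a filter on FPKM (0.300), 0.48 as a summed locus (0.0581) and 0.48 to 0.52 with each library left out, none of them called. With each library left out, the Meis1 difference lay between -0.15 and 0.01 for its row and for its locus, and it was above 0 (0.0054 and 0.0053) without si-DYRK1A replicate 1.

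Rows called over the whole table (2360) were 1199, 1180 and 591 under the 3 FPKM settings, and 1614 to 2210 with each library left out. The 1245 higher and 1115 lower rows became 1063 and 1339 with library size only, and 1258 and 1315 without a filter on low counts. The other cardiac factors (6 called) gave 2, 1 and 0 under those settings and 3 to 6 with each library left out, and the target genes (8 called) gave 5, 5 and 4 and 4 to 9. From annotated rows alone, the MEF2 shares differed by 7.86 percentage points for Mef2a, -7.86 for Mef2c and 0 for Mef2d, on 57, 3 and 0 counts in the 6 libraries; leaving out each library kept the 3 differences at 0.496 to 1.79, 0.451 to 0.582 and -2.30 to -1.08. The cause of these changes was not tested.

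The replicate numbers did not pair the libraries (correlations of same-numbered deviations of 0.0578, -0.0261 and -0.00409). With the replicate block the fit called 2269 rows, 5 target genes and 1 member row, that of Tbx20, while Mef2c was not called (0.50, adjusted p = 0.0621). Of 283 further values of single member rows and loci, 280 kept direction and side of the threshold. Of 63 values of the ratios to the cardiomyocyte markers, 55 kept their sign, and the 8 that did not belonged to Gata6, Nkx2-5, Tbx5 and Mef2a, whose groups overlapped. With a marker sum leaving out Tnnt2, Tnni3, Myh6 and Actc1, the ratio of Mef2d was -0.11 with the groups still apart. At about 5 to 10 CPM (Mef2c, Meis1, Gata4) counting error limits what could be detected, and more so for Tbx5 and Hand2.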

Other observations

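An unannotated row on the strand opposite to Nkx2-5 spanned a much longer region (chr10:16453267-16911297, Rnor_6.0) and had 103, 112 and 116 counts in si-NC replicates 1 to 3 and 118, 85 and 105 counts in si-DYRK1A replicates 1 to 3. Its log2 fold change was -0.08 (SE 0.147, edgeR adjusted p = 0.786). The use of strand in the counting is not given in the sources used here, so that reads of the 2 strands cannot be told apart at this locus.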
